A study of Mus musculus with 26 samples.

Results

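Morc1, Sohlh2, Dazl, Mael, Dppa3, Ddx4, Tex101 and Stk31 are genes best known from germ cells, and their transcripts were followed here in mouse embryonic stem cells after knockdown of the RNA methyltransferase subunits Mettl3 and Mettl14. The 8 genes were chosen by name from 22180 genes that had a probe set listed with exactly 1 symbol on the array, with earlier results of these data in view. Each had a single such probe set, and all 8 were among the 14787 genes left after the dimmest were set aside. The largest falls of the knockdowns in the repeat set described below had a part in that choice, so the changes of the 8 genes in that set, and their differences from it, are given as values with no test.

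The cells were of the mouse embryonic stem cell line J1, grown in serum with leukaemia inhibitory factor above irradiated mouse embryonic fibroblasts. The 26 arrays form 13 groups of 2 replicates. A time course of 18 arrays covers scramble control, Mettl14 knockdown and Mettl3 knockdown cells taken at 0 h, 4 h and 8 h. A further 8 arrays, called the repeat set, were all taken at 0 h and give each of the knockdowns its own scramble control. The labels describe both lentiviral hairpins with puromycin selection and transfected small interfering RNA without saying which arrays received which, and they do not state what the cells were exposed to during the 4 h and 8 h. In the repeat set, replicate 2 of each scramble control is called a 4 h sample in its description but a 0 h sample in its title, source and time fields, and was taken as 0 h. Nothing beyond the word biological in the titles says that replicates came from separate cultures, so p-values measure only the spread between these arrays, which may be technical.

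Mettl3 and Mettl14 form the core of the enzyme that writes N6-methyladenosine on messenger RNA, a mark that in many transcripts is tied to faster decay. Germline genes are for the most part silent in somatic tissues, where CpG-rich promoters of many of them carry DNA methylation. Embryonic stem cells transcribe a number of them, held in check there by a Polycomb complex that contains E2F6, MGA and MAX, and several are also read in the germ cell precursors of the embryo.

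Sequences upstream of a listed start are printed for 4 of the genes. Their source was RefSeq (GRCm38.p6). Its table held a window from 250 bases before to 50 bases after a listed start for 6 of the 8 genes. None was listed for Morc1 and Dppa3. Sohlh2, Dazl and Mael are shown because they were lower in every knockdown comparison, and Ddx4 because it was not lower in the repeat set and holds both motifs searched. Stk31, also lower in every knockdown comparison, is not printed. The 250 bases before the listed start are printed 5′ to 3′ on the strand of the gene. Matches to the E-box CACGTG, bound by MGA with MAX among others, and to GCGGGAA, an E2F-type motif, are in capitals on either strand. For Ddx4 the listed start lies inside the gene span of chr13:112598333-112652633, downstream of its 5′ end. All 250 bases printed for Ddx4 therefore fall within the annotated gene. The listed starts of Stk31 also lie inside its gene span.
Sohlh2 (chr3:55181794-55182043, plus strand): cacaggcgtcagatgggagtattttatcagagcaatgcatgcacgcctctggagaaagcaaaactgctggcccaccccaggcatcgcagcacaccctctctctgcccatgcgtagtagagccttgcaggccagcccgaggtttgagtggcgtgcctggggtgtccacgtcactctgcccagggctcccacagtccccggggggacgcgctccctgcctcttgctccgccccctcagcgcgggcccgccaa
Dazl (chr17:50293621-50293870, minus strand): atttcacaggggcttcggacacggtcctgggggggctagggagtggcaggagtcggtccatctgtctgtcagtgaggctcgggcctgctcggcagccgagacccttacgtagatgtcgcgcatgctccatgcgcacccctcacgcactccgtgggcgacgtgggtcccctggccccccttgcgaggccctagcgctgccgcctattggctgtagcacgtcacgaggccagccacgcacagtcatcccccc
Mael (chr1:166238745-166238994, minus strand): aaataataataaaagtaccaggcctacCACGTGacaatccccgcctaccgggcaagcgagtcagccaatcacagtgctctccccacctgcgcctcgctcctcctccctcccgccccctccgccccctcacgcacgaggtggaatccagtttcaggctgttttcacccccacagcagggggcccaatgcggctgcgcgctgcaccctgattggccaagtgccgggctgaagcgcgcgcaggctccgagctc
Ddx4 (chr13:112652311-112652560, minus strand): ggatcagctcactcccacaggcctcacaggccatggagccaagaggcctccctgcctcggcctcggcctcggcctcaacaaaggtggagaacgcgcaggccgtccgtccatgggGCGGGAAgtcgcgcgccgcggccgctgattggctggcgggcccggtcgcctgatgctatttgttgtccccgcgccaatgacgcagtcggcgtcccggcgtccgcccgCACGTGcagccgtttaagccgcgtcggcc
CACGTG was found in the windows of Mael, Ddx4 and Stk31, at positions -223, -29 and -55 from the listed start (-120 from another listed start of Stk31). GCGGGAA was found in the window of Ddx4, at position -136, and does not overlap the E-box there. Of 32851 promoter windows of the same length, 7.15% held CACGTG and 4.6% held GCGGGAA. The windows held 17 CpG in Sohlh2, 19 in Tex101, 24 in Mael, 28 in Dazl, 38 in Ddx4 and 29 and 28 in the 2 windows of Stk31. Over all 32851 windows the median was 7 CpG and the upper quartile 20. Each window was above that median, and Sohlh2 and Tex101 did not reach the upper quartile. These matches are descriptions of the letters and do not show that a factor binds.

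The knockdowns lowered their targets: Mettl14 stood at 30.9% of scramble at 0 h of the time course and at 39.0% in the repeat set, and the Mettl3 probe set, which also lists Tox4, at 26.9% and 23.6% after Mettl3 knockdown. Pearson's r between replicate arrays, over probe sets, was 0.987 to 0.993. The 0 h arrays of the time course had median signals of 6.48 to 6.50, and all other arrays 6.28 to 6.39. Markers of embryonic stem cells were present, with a mean over 11 listed genes such as Pou5f1 and Nanog of 10.79 to 10.81 in scramble at 0 h of the time course, and of 10.07 to 10.10 in both knockdowns. It was 10.73 to 10.76 in the scramble controls and 10.22 to 10.27 in the knockdowns of the repeat set. The mean over 23 fibroblast markers on the array, which the feeder layer would carry, was 7.17 to 7.19 in scramble at 0 h and 7.53 to 7.66 in the knockdowns. The repeat set had 7.58 to 7.62 and 7.43 to 7.45 in the scramble controls of Mettl14 and Mettl3, and 7.75 to 7.76 and 7.68 to 7.69 in their knockdowns. Of the stem cell markers tested, 8 and 9 of 10 fell after Mettl14 and Mettl3 knockdown in the time course at 0 h, and 10 and 9 in the repeat set. Among all genes 20.1% and 18.6% fell in the time course at 0 h, and 16.9% and 17.4% in the repeat set. Of 20 fibroblast markers tested, 9 and 8 rose and 1 and 2 fell in the time course, where 19.4% and 19.3% of all genes rose. The repeat set had 7 and 7 that rose and 0 and 1 that fell, where 19.4% and 17.9% of all genes rose. In scramble the stem cell mean was 10.46 to 10.49 at 4 h and 10.20 to 10.23 at 8 h, and the fibroblast mean 7.39 to 7.43 and 7.46 to 7.57. These marker levels moved with the comparisons below, and their part in the changes of the germline genes was not tested. In bulk RNA, fewer cells of a type and less RNA per cell cannot be told apart.

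**Figure D1:**
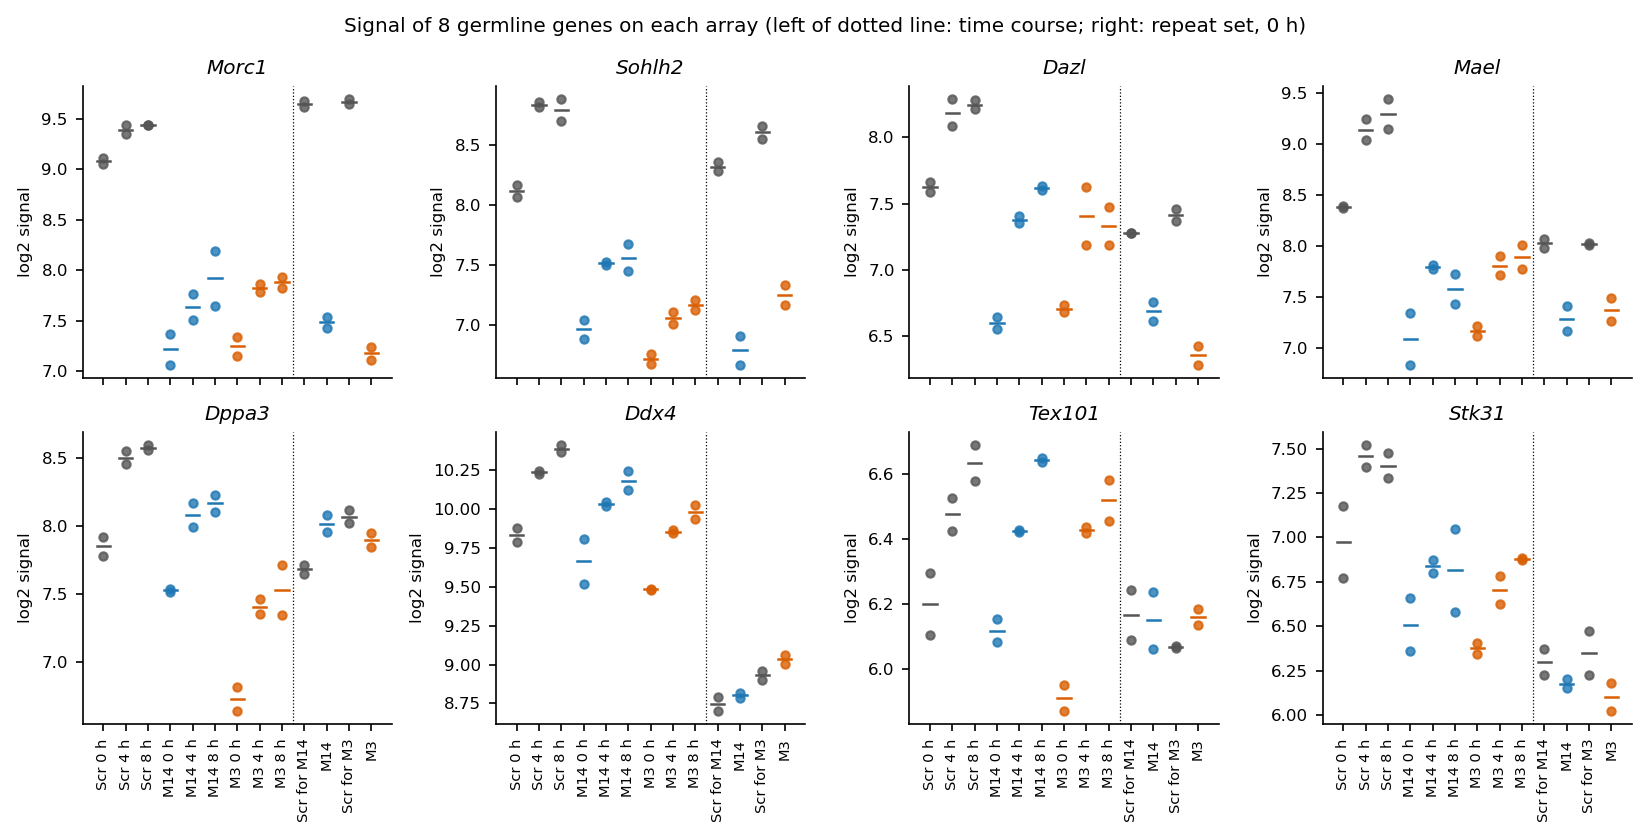
Log2 signal of each of the 8 germline genes on each of the 26 arrays (points) with the mean of each group of 2 (bars), grey for scramble (Scr), blue for Mettl14 knockdown (M14) and orange for Mettl3 knockdown (M3); the dotted line separates the time course from the repeat set, and each panel has its own axis. Morc1, Sohlh2, Dazl and Mael lie lower in every knockdown group than in the scramble controls of the same set and time, while Ddx4 and Tex101 overlap scramble in the Mettl14 knockdown at 0 h.

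At 0 h of the time course, 6 of the 8 genes fell after Mettl14 knockdown and all 8 fell after Mettl3 knockdown. Among all 14787 genes 20.1% and 18.6% fell in these comparisons, at an adjusted p under 0.05 in limma. The median change of the 8 was -0.74 on the log2 scale after Mettl14 knockdown and -1.02 after Mettl3 knockdown, against medians of -0.0035 and 0.0031 over all genes. Both comparisons share the same 2 scramble arrays, so they are not independent of each other. The genes were chosen in part by their falls after the same knockdowns in the repeat set. Their counts and medians are therefore not those of genes picked without regard to these data. In both, Morc1, Sohlh2, Dazl and Mael had changes near -1 or beyond, and Ddx4, Tex101 and Stk31 had smaller ones than these. Dppa3 differed in size between the knockdowns, and its -0.33 after Mettl14 knockdown was smaller than the -0.46 of Stk31.

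**Figure D2:**
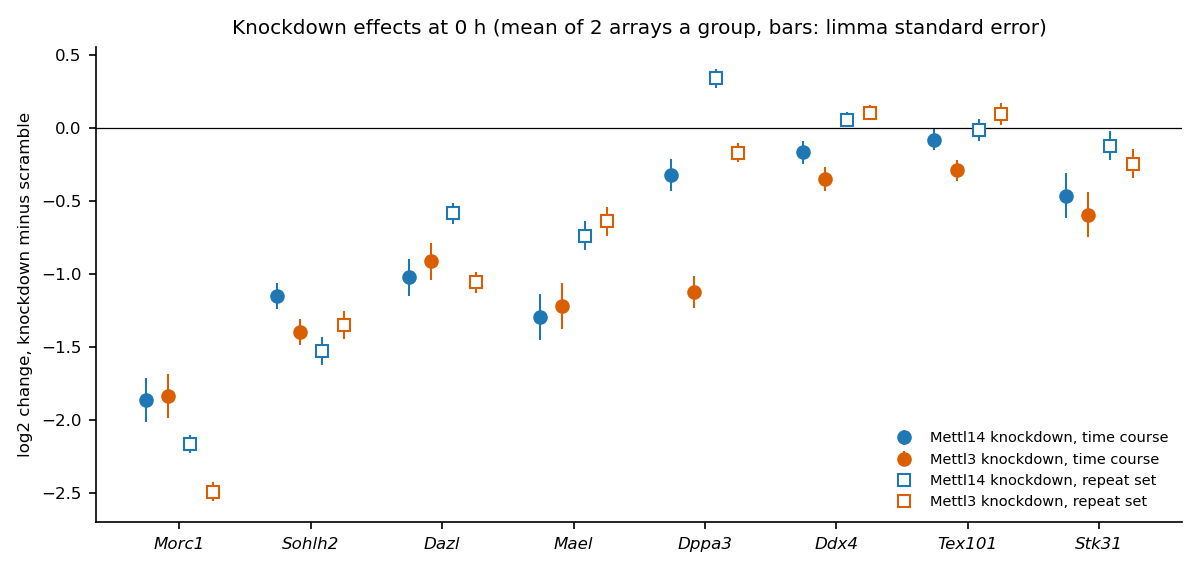
Log2 change from scramble at 0 h for each gene, as the difference of means of 2 arrays a group with the limma standard error, in the Mettl14 (blue) and Mettl3 (orange) knockdowns of the time course (filled circles) and of the repeat set (open squares). Morc1, at -1.84 to -2.49, has the lowest points in all 4 comparisons, and Dppa3 lies at -1.12 in the time course after Mettl3 knockdown and at 0.34 after Mettl14 knockdown in the repeat set.

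Morc1 encodes an ATPase of the MORC family that is needed to silence transposons in male germ cells. Its probe set (17326032, gene at chr16:48431237-48630905) read 9.11 and 9.05 in scramble at 0 h of the time course, 7.37 and 7.07 in the Mettl14 knockdown and 7.15 and 7.34 in the Mettl3 knockdown. The knockdown arrays lay well below the scramble arrays and overlapped each other. The change was -1.86 ± 0.15 after Mettl14 knockdown (limma standard error, adjusted p = 1.21e-06) and -1.84 ± 0.15 after Mettl3 knockdown (adjusted p = 1.45e-06), or 27.5% and 28.0% of scramble. These were the 11th and 9th lowest changes of all genes tested. Among the repeat arrays Morc1 read 9.62 and 9.68 in the scramble control of Mettl14 and 7.43 and 7.54 in the knockdown, and 9.65 and 9.69 against 7.12 and 7.25 for Mettl3. Those changes, -2.16 ± 0.06 and -2.49 ± 0.06, ranked second lowest and lowest of all genes, a position that had a part in its choice. At 4 h it stood at 29.6% and 33.8% of scramble and at 8 h at 34.9% and 33.9%, after Mettl14 and Mettl3 knockdown, with adjusted p between 2.11e-06 and 5.68e-06. In the order of its 9 time course means, the 6 knockdown groups ran from 7.22 to 7.92 and the 3 scramble groups from 9.08 to 9.44, and no knockdown array reached a scramble array.

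Mael encodes an HMG-box protein of the germ granule with a role in the Piwi-interacting RNA pathway. The arrays (probe set 17229315, gene at chr1:166201385-166238744) read 8.38 and 8.40 in scramble at 0 h, 7.34 and 6.84 in the Mettl14 knockdown and 7.12 and 7.22 in the Mettl3 knockdown. The replicates of the Mettl14 knockdown were further apart than those of the other groups at 0 h, and both were below scramble. The changes were -1.30 ± 0.16 (adjusted p = 3.82e-05) and -1.22 ± 0.16 (adjusted p = 6.87e-05). They remained between -1.33 and -1.35 at 4 h, and were -1.71 ± 0.16 after Mettl14 knockdown and -1.40 ± 0.16 after Mettl3 knockdown at 8 h. The scramble controls of the repeat set read 7.98 and 8.07 (for Mettl14) and 8.01 and 8.03 (for Mettl3), and the knockdowns 7.17 and 7.41, and 7.26 and 7.49. The changes there were smaller, at -0.74 ± 0.10 and -0.64 ± 0.10. The 6 knockdown groups of the time course again all lay below the scramble groups, from 7.09 to 7.89 against 8.39 to 9.29. Among the knockdown means, 7.79, 7.81 and 7.89 were neighbours whose arrays overlapped.

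Sohlh2 encodes a basic helix-loop-helix transcription factor of early spermatogonia and oocytes. Its arrays (probe set 17397695, gene at chr3:55182044-55209957) read 8.16 and 8.07 in scramble at 0 h, 7.05 and 6.89 in the Mettl14 knockdown and 6.68 and 6.76 in the Mettl3 knockdown. No groups overlapped, and the Mettl3 knockdown was the lowest. The changes were -1.15 ± 0.09 (adjusted p = 7e-07) and -1.40 ± 0.09 (adjusted p = 1.37e-07), or 2.22-fold and 2.63-fold lower. After Mettl3 knockdown the change was -1.77 ± 0.09 at 4 h (adjusted p = 1.83e-08) and -1.63 ± 0.09 at 8 h, and after Mettl14 knockdown -1.32 ± 0.09 and -1.23 ± 0.09. The repeat arrays read 8.28 and 8.36 in scramble against 6.67 and 6.91 after Mettl14 knockdown, and 8.66 and 8.55 against 7.17 and 7.34 after Mettl3 knockdown. The order of the knockdowns was thus the other way there, with changes of -1.53 ± 0.09 for Mettl14 and -1.35 ± 0.09 for Mettl3, and the 2 scramble controls of the set did not overlap each other.

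Dazl encodes an RNA-binding protein that germ cells need to enter their own programme of development. Its arrays (probe set 17345880, gene at chr17:50279393-50293620) read 7.66 and 7.59 in scramble at 0 h, 6.55 and 6.65 in the Mettl14 knockdown and 6.68 and 6.74 in the Mettl3 knockdown. Both knockdowns were about 1 log2 unit lower, at -1.02 ± 0.13 (adjusted p = 4.03e-05) and -0.92 ± 0.13 (adjusted p = 0.000109). At 4 h the changes were -0.80 ± 0.13 and -0.78 ± 0.13, and at 8 h -0.62 ± 0.13 (adjusted p = 0.00148) and -0.91 ± 0.13. By 8 h the Mettl14 knockdown, with 7.61 and 7.64, overlapped scramble at 0 h but not scramble at 8 h, which read 8.28 and 8.21. Dazl in the repeat set read 7.28 on both scramble arrays and 6.76 and 6.62 after Mettl14 knockdown, a change of -0.59 ± 0.07. It read 7.46 and 7.37 against 6.29 and 6.43 for Mettl3, a change of -1.06 ± 0.07.

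Dppa3, also called Stella, encodes a small protein of primordial germ cells and oocytes that protects maternal DNA methylation in the zygote. Its arrays (probe set 17462686, gene at chr6:122626424-122630271) read 7.92 and 7.79 in scramble at 0 h, 7.52 and 7.54 in the Mettl14 knockdown and 6.82 and 6.64 in the Mettl3 knockdown. The Mettl3 knockdown arrays were the lowest of all 26, and no groups overlapped. The change was -1.12 ± 0.11 after Mettl3 knockdown (adjusted p = 5.98e-06), to 45.9% of scramble, and -0.33 ± 0.11 after Mettl14 knockdown (adjusted p = 0.0325), to 79.8%. The difference between the knockdowns was not tested. The call after Mettl14 knockdown was lost with no filter on dim genes (adjusted p = 0.0606), without replicate 1 of scramble (-0.26, adjusted p = 0.190) and without replicate 1 or 2 of the knockdown (-0.31 and -0.34, adjusted p = 0.108 and 0.0922). At 4 h and 8 h the Mettl3 knockdown remained at -1.10 ± 0.11 and -1.05 ± 0.11, and the Mettl14 knockdown at -0.42 ± 0.11 and -0.41 ± 0.11 (adjusted p = 0.00818 and 0.00875). The 4 h call for Mettl14 was lost without replicate 2 of scramble (-0.37, adjusted p = 0.0626) or of the knockdown (-0.33, adjusted p = 0.0799), and the 8 h call without replicate 1 of the knockdown (-0.35, adjusted p = 0.0658).

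Dppa3 behaved otherwise in the repeat set. Scramble read 7.65 and 7.72 and the Mettl14 knockdown 7.96 and 8.09, so that both knockdown arrays were above both scramble arrays, by 0.34 ± 0.07. The scramble control of Mettl3 read 8.12 and 8.02 and its knockdown 7.85 and 7.95, a change of -0.17 ± 0.07. The means of the 2 scramble controls, 7.68 and 8.07, were thus further apart than either was from the Mettl3 knockdown mean of 7.90, and the Mettl14 knockdown overlapped the scramble control of Mettl3.

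Ddx4 encodes the mouse homologue of Vasa, a DEAD-box RNA helicase of germ granules. Its arrays (probe set 17296225, gene at chr13:112598333-112652633) read 9.88 and 9.79 in scramble at 0 h, 9.81 and 9.52 in the Mettl14 knockdown and 9.49 and 9.48 in the Mettl3 knockdown. Replicate 1 of the Mettl14 knockdown lay among the scramble arrays. The change after Mettl14 knockdown was -0.17 ± 0.08 (adjusted p = 0.121) and after Mettl3 knockdown -0.35 ± 0.08 (adjusted p = 0.00427), or 78.4% of scramble. The first value rested on the replicate: it was -0.31 without replicate 1 of the Mettl14 knockdown, which passed (adjusted p = 0.00489), and -0.02 without replicate 2 (adjusted p = 0.843). At 4 h and 8 h the Mettl3 knockdown gave -0.38 ± 0.08 and -0.41 ± 0.08 (adjusted p = 0.00241 and 0.0014). The Mettl14 knockdown gave -0.20 at both times (adjusted p = 0.0636 and 0.0574) and passed there in fits with another variance model, such as a single fit over all 26 arrays (adjusted p = 0.0307 and 0.0276). Scramble and knockdown were close in the repeat set, from 8.70 to 8.82 for Mettl14 and from 8.90 to 9.06 for Mettl3, with changes of 0.05 ± 0.05 and 0.10 ± 0.05. All 8 arrays of that set lay below all 18 of the time course, though whether the sets were processed together is not stated.

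Tex101 encodes a surface protein of testicular germ cells that sperm need for fertility, and it was near the lower end of the signals tested. Its arrays (probe set 17487743, gene at chr7:24668012-24672050) read 6.30 and 6.11 in scramble at 0 h, 6.08 and 6.15 in the Mettl14 knockdown and 5.87 and 5.95 in the Mettl3 knockdown. The first knockdown overlapped scramble and the second did not. The change was -0.08 ± 0.07 after Mettl14 knockdown (adjusted p = 0.394) and -0.29 ± 0.07 after Mettl3 knockdown (adjusted p = 0.00651). The latter call was lost without replicate 1 of scramble (-0.20, adjusted p = 0.0828) or of the Mettl3 knockdown (-0.25, adjusted p = 0.0531), and in a fit with a variance trend (adjusted p = 0.0522). At 4 h and 8 h no change passed, with values of -0.05 and 0.01 after Mettl14 knockdown and -0.05 and -0.11 after Mettl3 knockdown (adjusted p = 0.226 to 0.928). The 8 arrays of the repeat set ran from 6.06 to 6.24, with changes of -0.02 ± 0.08 and 0.09 ± 0.08, and the 4 group means had overlapping arrays between neighbours.

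Stk31 encodes a testis protein with a Tudor domain and a kinase-like domain. Its arrays (probe set 17458486, gene at chr6:49395506-49469506) read 7.18 and 6.77 in scramble at 0 h, 6.66 and 6.36 in the Mettl14 knockdown and 6.41 and 6.35 in the Mettl3 knockdown. The scramble replicates were further apart than those of either knockdown, and the knockdown arrays lay below both. The change was -0.46 ± 0.15 after Mettl14 knockdown (adjusted p = 0.031) and -0.60 ± 0.15 after Mettl3 knockdown (adjusted p = 0.00871). Replicate 1 of scramble bore on both calls, since without it the changes were -0.26 (adjusted p = 0.283) and -0.39 (adjusted p = 0.106). The Mettl14 call was also lost without replicate 2 of that knockdown (-0.32, adjusted p = 0.223), with no filter on dim genes (adjusted p = 0.0569) and on the 6 arrays of 0 h alone (adjusted p = 0.0656). At 4 h Stk31 changed by -0.62 ± 0.15 and -0.75 ± 0.15 and at 8 h by -0.59 ± 0.15 and -0.53 ± 0.15, after Mettl14 and Mettl3 knockdown (adjusted p = 0.00206 to 0.0157). The 4 h call for Mettl14 was lost without replicate 1 of scramble (-0.56, adjusted p = 0.0502). At 8 h both calls were lost without replicate 1 of scramble (-0.52 and -0.45, adjusted p = 0.0557 and 0.0917), that for Mettl14 without replicate 1 of its knockdown (-0.36, adjusted p = 0.0934), and that for Mettl3 without replicate 1 or 2 of its knockdown (-0.52 and -0.53, adjusted p = 0.0652 and 0.0562). The repeat arrays ran from 6.02 to 6.47, with changes of -0.12 ± 0.10 and -0.25 ± 0.10.

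Over the repeat set as a whole, the 4 genes with the lowest changes were the same after each knockdown, namely Morc1, Sohlh2, Dazl and Mael. The median change of the 8 was -0.36 after Mettl14 knockdown and -0.44 after Mettl3 knockdown, and since these changes had a part in the choice of the genes, nothing is read from them. Without replicate 2 of each scramble control, the arrays described as 4 h, Morc1, Sohlh2, Dazl and Mael changed by -2.13, -1.49, -0.59 and -0.69 after Mettl14 knockdown and by -2.47, -1.40, -1.10 and -0.63 after Mettl3 knockdown. Dppa3 was then at 0.37 and -0.22, and the remaining genes lay between -0.20 and 0.13. The difference between the sets, as the time course effect minus the repeat effect in a fit over all 26 arrays, is likewise given as a value. For Dppa3 it was -0.66 ± 0.14 after Mettl14 knockdown and -0.95 ± 0.14 after Mettl3 knockdown. After Mettl3 knockdown it was also -0.45 ± 0.10 for Ddx4, -0.38 ± 0.11 for Tex101 and 0.65 ± 0.19 for Morc1. For Mael the difference after Mettl14 knockdown was -0.56 ± 0.21, and between -0.81 and -0.31 when 1 array was left out, and for Dazl it was -0.44 ± 0.16.

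The knockdown effects were still present later in the time course. At 4 h, 6 of the 8 genes fell relative to scramble after Mettl14 knockdown and 7 after Mettl3 knockdown, where 19.5% and 18.4% of all genes fell. At 8 h the counts were again 6 and 7, where 19.8% and 19% of all genes fell. The genes that did not pass were Ddx4 and Tex101 after Mettl14 knockdown and Tex101 after Mettl3 knockdown. The median change of the 8 was -0.71 and -0.94 at 4 h and -0.61 and -0.98 at 8 h. That the genes were chosen with earlier results of these data in view bears on these values too.

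**Figure D3:**
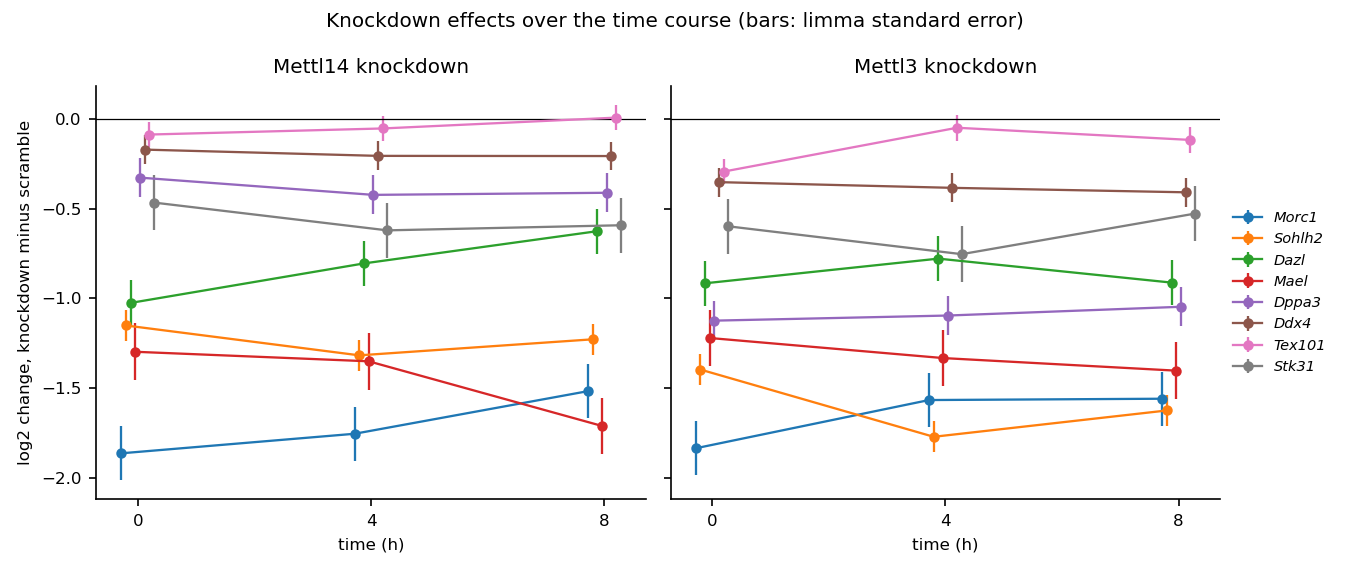
Log2 change from scramble at 0 h, 4 h and 8 h of the time course for each gene after Mettl14 knockdown (left) and Mettl3 knockdown (right), with the limma standard error; each point compares 2 knockdown arrays with 2 scramble arrays of the same time. Morc1, Sohlh2 and Mael stay between -1.15 and -1.86 throughout, and Tex101 stays between -0.29 and 0.01.

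All 8 transcripts read higher at 4 h and 8 h than at 0 h, in scramble and in both knockdowns. Of the 48 values (8 genes, 3 treatments and 2 later times), 48 were positive and 43 passed, from 0.28 to 1.02 on the log2 scale, while the medians of all genes ran from 0.10 to 0.15. In scramble 7 of the 8 genes rose by 4 h and 7 by 8 h, where 32.7% and 39.2% of all genes rose. After Mettl14 knockdown 7 rose at each time, where 33% and 36.8% of all genes rose, and after Mettl3 knockdown 7 and 8, where 31.5% and 36.9% did. The changes at 4 h and 8 h share their 0 h arrays.

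Mael had the largest change of the 8 in scramble. It read 8.38 and 8.40 at 0 h, 9.04 and 9.24 at 4 h and 9.15 and 9.44 at 8 h, so the later arrays overlapped each other but not 0 h. The change was 0.76 ± 0.16 at 4 h (adjusted p = 0.00231) and 0.91 ± 0.16 at 8 h (adjusted p = 0.000369). Sohlh2 read 8.86 and 8.81 at 4 h and 8.70 and 8.88 at 8 h, a change of 0.72 ± 0.09 and 0.67 ± 0.09. Dppa3 rose by 0.65 ± 0.11 and 0.72 ± 0.11, and Dazl by 0.56 ± 0.13 and 0.62 ± 0.13. Ddx4, with 10.23 and 10.25 at 4 h and 10.37 and 10.41 at 8 h, rose by 0.40 ± 0.08 and 0.55 ± 0.08, without overlap between times. Tex101 rose by 0.28 ± 0.07 and 0.43 ± 0.07, and Stk31 by 0.48 ± 0.15 and 0.43 ± 0.15. Morc1 did not pass in scramble, at 0.31 ± 0.15 and 0.36 ± 0.15 (adjusted p = 0.111 and 0.0568), though the arrays at 4 h and 8 h, at 9.35 to 9.44, were all above those at 0 h. It passed at 8 h in 5 alternatives, among them 1 fit over all 26 arrays (adjusted p = 0.0287) and quantile normalization within the set (0.49, adjusted p = 0.00485), and at 4 h with quantile normalization (0.38, adjusted p = 0.0244) and array weights (adjusted p = 0.0404).

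In the knockdowns the same genes started from lower levels. Dazl changed from 6.55 and 6.65 at 0 h to 7.41 and 7.35 at 4 h and 7.61 and 7.64 at 8 h after Mettl14 knockdown, with no overlap between times. That change of 1.02 ± 0.13 at 8 h (adjusted p = 2.68e-05) was the highest of the 48. After Mettl3 knockdown Dppa3 rose from 6.82 and 6.64 to 7.71 and 7.35 at 8 h, by 0.80 ± 0.11 (adjusted p = 5.99e-05), and Tex101 from 5.87 and 5.95 to 6.58 and 6.46, by 0.61 ± 0.07 (adjusted p = 1.89e-05). Morc1 rose by 0.70 ± 0.15 after Mettl14 knockdown and 0.63 ± 0.15 after Mettl3 knockdown at 8 h, from arrays that stayed at or below 8.19. Stk31 did not pass after Mettl14 knockdown at 4 h or 8 h (0.33 and 0.31, adjusted p = 0.102 and 0.112) or after Mettl3 knockdown at 4 h (0.33, adjusted p = 0.104). With quantile normalization within the set these were 0.50, 0.47 and 0.50 and passed (adjusted p = 0.0175, 0.0195 and 0.0178).

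**Figure D4:**
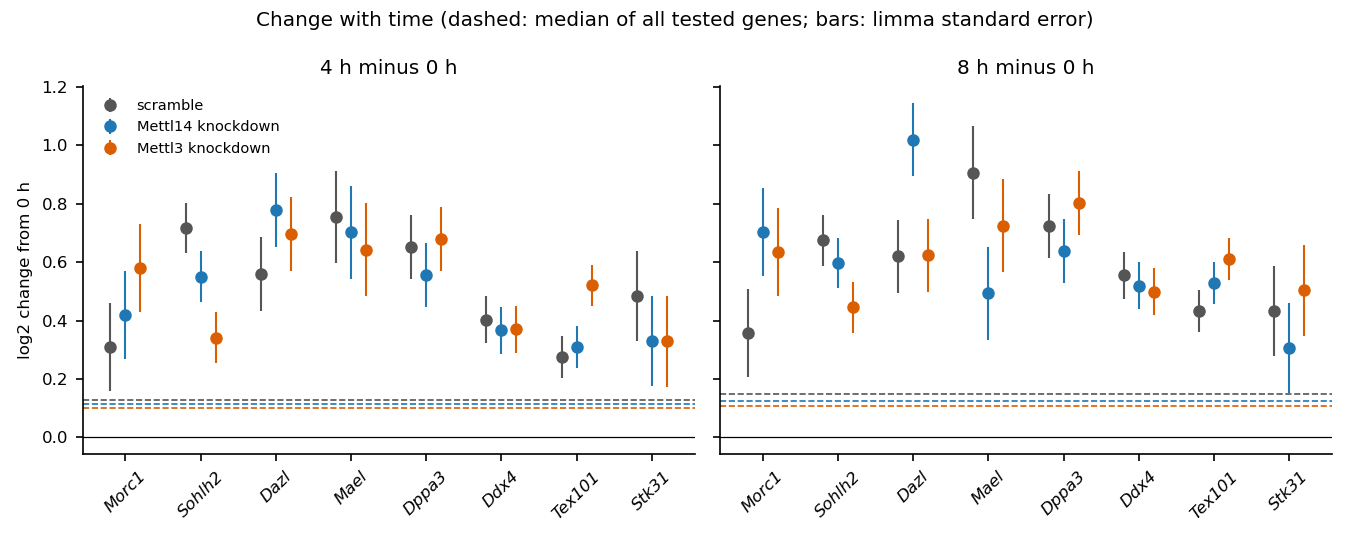
Log2 change from 0 h to 4 h (left) and to 8 h (right) for each gene in scramble (grey), Mettl14 knockdown (blue) and Mettl3 knockdown (orange), with the limma standard error; dashed lines give the median over all 14787 tested genes in each treatment, 0.10 to 0.15. All 48 points lie above zero and above the dashed line of their treatment.

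The size of these rises depended on how the arrays were scaled. With each array shifted to an equal median of 32 long-lived transcripts, all 48 values were still positive, from 0.04 to 0.77, but 25 passed. The medians of all genes became -0.20 to -0.07. Of all genes 3.95% to 11.8% rose under that scaling, against 31.5% to 39.2% before it. Each value lay 0.15 to 0.90 above the median of all genes in its comparison, a distance that such a shift of whole arrays cannot alter. Under that scaling the share of rises among all calls went from 70.7% to 12.6% at 4 h and from 64.5% to 12.9% at 8 h in scramble. It went from 71.5% to 28.6% and from 65.5% to 25.3% after Mettl14 knockdown, and from 70.7% to 21.5% and from 65.9% to 15.9% after Mettl3 knockdown. The 4 genes that rose in scramble at 8 h under both scalings were Sohlh2, Mael, Dppa3 and Ddx4, with 0.35, 0.59, 0.40 and 0.23 on the second scale.

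Some of the rises rested on 1 array. In scramble the calls of Stk31 were lost without replicate 2 at 0 h (0.28 and 0.23 at 4 h and 8 h, adjusted p = 0.214 and 0.270), without replicate 1 at the later time (0.42 and 0.36, adjusted p = 0.115 and 0.134), and at 4 h without replicate 2 (0.55, adjusted p = 0.0502). That of Tex101 at 4 h was lost without replicate 2 at 0 h (0.18, adjusted p = 0.0925) or 4 h (0.22, adjusted p = 0.0711). After Mettl14 knockdown Morc1 at 4 h was lost without replicate 2 at 0 h or 4 h (0.27 and 0.29, adjusted p = 0.254 and 0.237), and at 8 h it kept its call without replicate 2 at 8 h, at 0.43. Mael at 8 h was lost without replicate 2 at 0 h or 8 h (0.24 and 0.34, adjusted p = 0.213 and 0.146) and was 0.74 without replicate 1 at 0 h. At 4 h Mael and Ddx4 kept their calls without replicate 2 at 0 h, at 0.45 and 0.22, and Stk31 at 8 h passed without replicate 1 at 8 h (0.54, adjusted p = 0.0134). After Mettl3 knockdown the 4 h calls of Morc1 (0.49 and 0.54), Sohlh2 (0.30 and 0.29) and Mael (0.55, at 4 h alone) were lost without replicate 1 at 0 h or 4 h, with adjusted p from 0.0504 to 0.0652. The 8 h call of Stk31 was lost without replicate 2 at 0 h (0.47, adjusted p = 0.0685) or without replicate 1 or 2 at 8 h (0.51 and 0.50, adjusted p = 0.0532 and 0.0565).

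Whether the 8 h change itself differed between a knockdown and scramble was tested as an interaction. None of the 8 genes passed in limma for either knockdown, where 4.99% and 3.47% of all genes passed. At an unadjusted p under 0.05 the count was 1 (Dazl, 0.40 ± 0.18) for Mettl14 and 0 for Mettl3, and a fit over all 26 arrays gave the same counts. The values ran from -0.41 (Mael) to 0.40 for Mettl14 and from -0.23 (Sohlh2) to 0.28 (Morc1) for Mettl3, with standard errors of 0.10 to 0.22.

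After each gene was centred within its set, Pearson correlations over the 26 arrays were positive for all 28 pairs, with a median of 0.74, and 11 pairs were over 0.8. The highest was between Morc1 and Sohlh2, at 0.94, and the lowest between Morc1 and Tex101, at 0.29. Over the 14 arrays at 0 h the correlations were lower, with a median of 0.53 and 7 pairs over 0.8. There they ran from 0.12 (Morc1 and Ddx4) to 0.96, and those of Ddx4 with Dazl and of Tex101 with Morc1 were 0.14 and 0.18. The median correlation of the 8 genes with all other genes was 0.11. The arrays share the knockdowns, the times and the set, and the genes were chosen with some of their changes known, so these values are descriptions. The 3 genes most like each member by the same measure were Bcas3, Cobl and Uri1 for Morc1 (0.97 to 0.98), and Apobec3, Slc47a1 and Mymx for Sohlh2 (0.98 each). They were Sod2, Mms19 and Aldh6a1 for Dazl (0.96 to 0.97), and Piwil2, Ints4 and Strn4 for Mael (0.97 to 0.98). For Dppa3 they were Ppil1, Cenpm and Mageb16 (0.93 to 0.94), for Ddx4 Jmjd8, Cenpv and Cog2 (0.94 to 0.95), for Tex101 Atp5j, Uqcc1 and Dennd10 (0.93 each), and for Stk31 Hscb, Ift172 and Lias (0.94 to 0.95).

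A wider list of 80 germline genes, of which 76 were on the array and 59 were tested, set the 8 in context. It leaves out the 8, and Dppa5a is in both this list and that of the stem cell markers. At 0 h of the time course 28 of the 59 fell and 1 rose after each knockdown, with a median of -0.22 for both, where 20.1% and 18.6% of all genes fell. In the repeat set 21 fell and 6 rose after Mettl14 knockdown and 26 fell and 2 rose after Mettl3 knockdown, with medians of -0.11 and -0.16, where 16.9% and 17.4% of all genes fell. By role, 7 of 11 germ cell specification genes fell after Mettl14 knockdown and 8 after Mettl3 knockdown in the time course at 0 h, and of those of the Piwi pathway and germ granule 6 and 5 of 16. Meiosis genes fell in 9 and 7 of 16 cases and rose in 1 and 1, and the remaining regulators fell in 6 and 8 of 16.

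**Figure D5:**
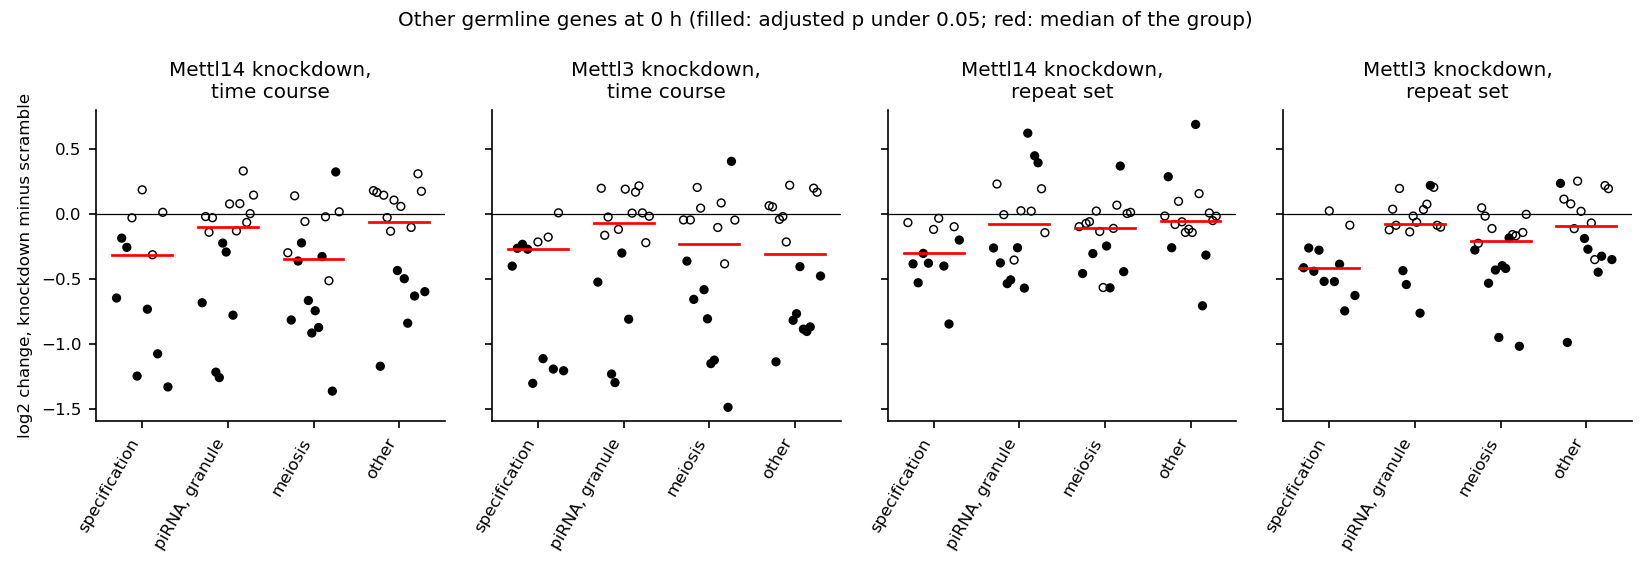
Log2 change from scramble at 0 h of the 59 other germline genes tested, by role, in the 4 knockdown comparisons; filled points have an adjusted p under 0.05, and red bars give the median of each role. Filled points below zero outnumber those above in all 4 panels, 28 to 1 in each time course comparison, 21 to 6 and 26 to 2 in the repeat set.

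Genes of this list with the largest changes at 0 h of the time course included Tex14, which builds the bridges between germ cells, at -1.36 ± 0.11 after Mettl14 knockdown and -1.49 ± 0.11 after Mettl3 knockdown. Piwil2, an Argonaute protein of the Piwi pathway, gave -1.26 ± 0.12 and -1.30 ± 0.12, and Kit, the receptor that germ cell precursors need to survive, -1.25 ± 0.10 and -1.30 ± 0.10. Tfap2c, a specification factor, fell by 1.33 after Mettl14 knockdown, and Mov10l1, a helicase of the Piwi pathway, by 1.23 after Mettl3 knockdown. In the repeat set Prdm14 and Rpl10l were lowest after Mettl14 knockdown, at -0.84 ± 0.09 and -0.70 ± 0.11, while Rhox6 and Tdrd5 rose by 0.69 ± 0.08 and 0.62 ± 0.07. After Mettl3 knockdown Tex14, Dmrt1 and Tdrd12 fell there by 1.02, 0.99 and 0.76. Smc1b changed by -0.95 ± 0.26 (adjusted p = 0.0272), a call lost without replicate 1 or 2 of scramble (-0.93 and -0.96) and without replicate 2 of the knockdown (-0.56). At 4 h 29 of 59 fell after each knockdown, and at 8 h 28 and 29, with 1 to 3 rising. Among all genes 19.5% and 18.4% fell at 4 h and 19.8% and 19% at 8 h, and 19.4% to 23.8% rose. Dmrt1, a regulator of spermatogonia, had the largest fall at 4 h, at -1.43 ± 0.08 and -1.61 ± 0.08, and Tex14 at 8 h, at -1.36 ± 0.11 and -1.56 ± 0.11.

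With time, 20 to 28 of the 59 rose and 1 to 5 fell across the treatments, with medians of 0.16 to 0.29 against 0.10 to 0.15 over all genes. Of all genes 31.5% to 39.2% rose, so the lower counts of the list were near that share. With the long-lived transcripts set equal, 3 to 9 of the 59 rose and 4 to 19 fell, where 3.95% to 11.8% of all genes rose and 22.9% to 43.7% fell. The medians of the list were then -0.09 to 0.0021, against -0.20 to -0.07 over all genes. Ddx25, a helicase of late spermatogenesis, rose in scramble by 0.65 ± 0.10 at 4 h and 0.85 ± 0.10 at 8 h. Prdm1, which opens the germ cell programme in the embryo, changed the other way, at -0.67 ± 0.14 and -0.81 ± 0.14, and Tfap2c and Ythdc2 fell by 1.22 and 0.71 at 8 h.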

How the data were processed

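RNA of J1 cells was measured on 26 Affymetrix Mouse Gene 2.0 ST arrays after purification of poly(A) RNA and biotin labelling, per the labels' protocols. The deposited values are log2 intensities per probe set, which the authors made with oligo's RMA routine (version not given), according to the submitters' processing notes. RMA corrects background, equalises probe distributions and summarises probes, which can shrink global shifts. No source says whether the 26 arrays went through it in 1 run. Of 41345 probe sets, 23521 had 1 symbol in the probe table, 1814 had several and 16010 were not listed. The brightest probe set by mean stood for a gene, and 7393 of 22180 genes (a fraction of 0.333, mean under 6.00) were left out as dim. The tests were two-sided, from lmFit and eBayes of limma 3.58.1 (R 4.3.3), with Benjamini-Hochberg adjustment over 14787 genes and a threshold of 0.05. The time course had 9 residual degrees of freedom, the repeat set 4 and the fit over all arrays 13. With 2 arrays in a group, their number limits precision. On simulated arrays with known changes of 1 log2 unit, 97% were recovered for the Mettl14 comparison at 0 h of the time course and 93% for that of the repeat set, over 14787 genes each. Positions and promoters are from RefSeq.

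The 8 genes and the lists were chosen with earlier results of these data known. Named genes are the 8 in every comparison, up to 4 of the wider germline list and of a list of repressors with the largest change among those that passed, the 3 genes most like each of the 8, and Mettl3 and Mettl14. Alternatives were the filter, a mean over probe sets, eBayes with trend and robust, array weights, a replicate block, quantile normalization within a set, an equal median of long-lived transcripts, 1 fit over all arrays, the 0 h arrays alone and leaving out each array.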

Additional observations from a re-analysis of the deposited data

Results flagged for a closer look

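For 3 of the 16 pairs of gene and knockdown, the 0 h changes of the sets were opposite and without overlap of arrays. In these pairs the arrays of knockdown lay below those of scramble in the time course and above them in the repeat set. The share of all genes that did so was not counted, so nothing is read from the number of pairs. Dppa3 after Mettl14 knockdown was lower in the time course and higher in the repeat set, a difference of -0.66 ± 0.14. After Mettl3 knockdown the same held for Ddx4, with a difference of -0.45 ± 0.10, and Tex101, with -0.38 ± 0.11. These differences were not tested, since the repeat values had a part in the choice of the genes. The sets also differ in the level of the marker lists and in their scramble arrays, and the part of these was not tested.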

How the results depend on the processing

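No change of the 8 genes that passed turned sign, though the medians of all genes over time did with long-lived transcripts equal. Deviations of same-numbered arrays correlated at -0.44 to 0.34 over 36 pairs of time course groups (median 0.03, 12 over 0.1). They correlated at -0.05 to 0.04 over 6 pairs of the repeat set. Whether the replicate numbers pair arrays of the time course was thus not settled. A replicate block changed none of 144 calls of the 8 genes (counts of 6 and 8 at 0 h as without it). Setting long-lived transcripts equal moved the count of rising genes to 3 and 4 in scramble at 4 h and 8 h, 4 after Mettl14 knockdown at 4 h, and 4 and 4 after Mettl3 knockdown. After Mettl14 knockdown at 8 h Morc1, Sohlh2, Dazl, Dppa3, Ddx4 and Tex101 still rose. Of all genes 3.95% to 11.8% rose under that scaling. In the repeat set the median change was -0.66 and -0.85 with a fraction of 0.5 left out as dim, over fewer of the 8 genes. Leaving out each array in turn gave 4 to 6 and 6 to 8 genes at 0 h of the time course, 5 to 6 and 7 at 4 h, 4 to 6 and 6 to 7 at 8 h, for Mettl14 and Mettl3. The rises then numbered 5 to 7 and 6 to 7 in scramble, 6 to 7 and 6 to 8 after Mettl14 knockdown, and 4 to 7 and 7 to 8 after Mettl3 knockdown, at 4 h and 8 h. The count of 4 came without replicate 1 of the Mettl3 knockdown at 4 h. The interactions numbered 0. The median change was -0.39 to -0.31 and -0.54 to -0.35 in the repeat set, and that of the set difference -0.38 to -0.15 and -0.49 to -0.22.

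Over all genes, interactions numbered 738 and 513, 345 and 251 with no filter, 1168 and 972 in 1 fit over all arrays, 430 with array weights for Mettl14 and 789 with trend and robust for Mettl3. Their share of rises went from 71.8% and 71.0% to 54.9% and 54.1% with quantile normalization, and for Mettl14 to 88.8% with long-lived transcripts equal. The latter also moved that share from 50.7% to 64.4% after Mettl3 knockdown in the repeat set and from 54.6% to 65.6% after Mettl14 knockdown at 8 h. Quantile normalization moved it from 64.5% to 74.7% in scramble at 8 h. The cause was not tested.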

Other observations

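Of 22 tested genes that hold germline promoters silent in stem cells, 4 rose and 7 fell after Mettl14 knockdown at 0 h of the time course, and 3 rose and 7 fell after Mettl3 knockdown. The repeat set had 4 that rose and 4 that fell, and 6 and 7. Over all genes 17.9% to 19.4% rose and 16.9% to 20.1% fell in these comparisons, so that 4 of 22 was near the share of all genes. E2f6, a repressor that recruits a Polycomb complex, rose in all 4 comparisons, by 0.54 ± 0.09 and 0.61 ± 0.09 in the time course and 0.45 ± 0.05 and 0.57 ± 0.05 in the repeat set. Yaf2, a Polycomb subunit, rose by 0.75 ± 0.13, 0.80 ± 0.13, 0.88 ± 0.05 and 0.69 ± 0.05. The DNA methyltransferases went apart in the time course, with Dnmt3a at -0.58 ± 0.06 and -0.59 ± 0.06 and Dnmt3b at 0.34 ± 0.05 and 0.38 ± 0.05. In the repeat set Dnmt3a fell by 0.34 and Dnmt3b rose by 0.67 after Mettl3 knockdown, and after Mettl14 knockdown Ring1 rose by 0.48 and Dnmt3l fell by 0.43.

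Over time Atf7ip, a partner of the histone methyltransferase SETDB1, and Mga, the MAX partner of the E2F6 complex, fell in scramble by 0.84 and 0.65 at 8 h, and Ehmt2 rose by 0.42 (0.10 with the long-lived transcripts set equal, adjusted p = 0.208). Pcgf6, another subunit of that complex, fell by 0.74 after Mettl14 knockdown and by 0.62 after Mettl3 knockdown. Its 8 h change differed from that in scramble by -0.50 ± 0.08 (adjusted p = 0.00359) and -0.37 ± 0.08 (adjusted p = 0.0199). The latter call was lost with no filter on dim genes (adjusted p = 0.0555) and with long-lived transcripts equal (-0.36, adjusted p = 0.0617). It was also lost in 5 of the 8 fits that left out 1 array (-0.38 to -0.33). Of the wider germline list 1 gene passed this test in each knockdown, the cohesin subunit Stag3 at 0.47 ± 0.09 and 0.45 ± 0.09. The call for Mettl14 was lost without replicate 2 of scramble at 8 h (0.40). That for Mettl3 was lost with no filter on dim genes (adjusted p = 0.0535) and in 5 of the 8 fits that left out 1 array (0.38 to 0.45).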
